A study of Mus musculus with 9 samples.

Results

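Argonaute (AGO) binding in mouse liver without miR-122 was described from the 4 miR-122 knockout (KO) libraries of a study that comprised 9 libraries, each from 1 mouse. AGO is the protein that carries microRNAs to their target RNAs, and CLIP-seq reads the stretches of RNA to which ultraviolet light has crosslinked it. Every KO library was included, and each of the 92645 bound regions of the count matrix entered once, with its 4 KO counts. The KO mice lacked miR-122, and the 5 controls were littermates carrying the floxed allele. All animals were 6 weeks old. The sources used here do not name the driver of the deletion or the cells it acts in. KO 1 was female and KO 2, KO 3 and KO 4 were male, while controls 1 to 3 were female and controls 4 and 5 male. Liver was flash frozen, pulverised and crosslinked, and AGO was pulled down with an antibody to all AGO proteins after partial RNase digestion.

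The KO libraries held 1006450, 1026098, 1070610 and 612479 counts in 67496 to 81714 regions, and the control libraries 445912 to 1170130 counts. Levels are given in CPM, the counts in a region scaled to the library's total over all regions. With 3 counts taken as the floor, a region needed 2.8 to 4.9 CPM in a KO library, which covers counting error only. Values after ± are SDs over the 4 KO libraries unless another n is given. At the miR-122 hairpin itself, KO 1 to KO 4 had 52, 3, 39 and 16 reads, and controls 1 to 5 had 447, 270, 378, 396 and 324. The mean level was 29.3 CPM in KO against 468 CPM in controls (edgeR quasi-likelihood test, log2 fold -3.88, SE 0.47, adjusted p = 4.2e-06). Every KO value was under every control value, and each KO library kept some reads at the locus.

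MicroRNAs guide AGO to RNAs that pair with their seed, bases 2 to 8 counted from the 5′ end. A site that pairs with the whole seed and has an A opposite base 1 is an 8mer, sites with 1 of these bases less are 7mers, and 6mers are shorter still. Longer matches are on average repressed more strongly. MicroRNAs with a common seed form a family and compete for the same sites. In liver, miR-122 is the dominant guide of hepatocytes, and let-7, miR-30, miR-15/16, miR-29, miR-26 and miR-27 are among the families found in most cell types. AGO also crosslinks to the hairpins and mature strands of the microRNAs it carries, so that microRNA genes appear among the bound regions.

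The guides of the 12 families that led the KO libraries are shown here because their seeds decide which regions count for which family. The sequences are mature mouse microRNAs from RefSeq (build GRCm38.p6), 5′ to 3′, with the seed in capitals.
let-7a-5p: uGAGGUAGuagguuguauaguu
miR-15a-5p: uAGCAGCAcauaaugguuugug
miR-16-5p: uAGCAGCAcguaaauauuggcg
miR-103-3p: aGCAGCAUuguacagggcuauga
miR-107-3p: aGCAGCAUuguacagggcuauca
miR-30a-5p: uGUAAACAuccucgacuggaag
miR-30e-5p: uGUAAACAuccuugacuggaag
miR-29a-3p: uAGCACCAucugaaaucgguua
miR-22-3p: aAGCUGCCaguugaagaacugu
miR-27a-3p: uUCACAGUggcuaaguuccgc
miR-26a-5p: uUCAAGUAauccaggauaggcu
miR-148a-3p: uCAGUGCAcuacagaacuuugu
miR-130a-3p: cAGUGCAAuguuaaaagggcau
miR-19b-3p: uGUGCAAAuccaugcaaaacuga
miR-21a-5p: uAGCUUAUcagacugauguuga

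Some of these seeds are shifted copies of each other. The seed of miR-15a and miR-16 and that of miR-103 and miR-107 have the run GCAGCA in common, and those of miR-148a, miR-130a and miR-19b have GUGCA in common. A single site can therefore hold matches to several families. Of the KO counts in regions with a 7mer or 8mer match to miR-103 and miR-107, 46.1% lay in regions that also matched miR-15/16, while 28.3% of the miR-15/16 counts lay in regions that matched miR-103 and miR-107. Of the miR-130 counts, 69.3% lay in regions that also matched miR-19, or 43.9% once the H19 gene was left out. A region counts in full for each family it matches in what follows, so family shares add up to more than the bound total.

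The libraries were first set against their labels and against markers of the cell types that liver can hold. KO 4 stood apart from KO 1 to KO 3 in several measures. It was labelled male and held reads of the Y-linked genes Ddx3y, Uty and Eif2s3y (91.4, 31.02 and 24.5 CPM), and it also held Xist, the RNA of the inactive X chromosome, at 359 CPM. Xist stood at 429 CPM in the female KO 1, at 91.6 and 126 CPM in the males KO 2 and KO 3, and at 11.96 and 63.1 CPM in the male controls. Its level in KO 4 was thus closer to that of the females, beside reads of Uty and Eif2s3y, which the female libraries lacked but for a level of 0.994 CPM of Uty in KO 1. The sex labels were kept as given.

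Of the 22 hepatocyte markers tested, 17 were lower and 2 higher in KO than in controls by edgeR's quasi-likelihood test at an adjusted p under 0.05, where 23.3% of all genes tested were lower and 21.9% higher. The median log2 fold was -0.83 for the list and 0.07 over all genes. The summed hepatocyte level was 28735, 30023, 26777 and 20260.3 CPM in KO 1 to KO 4 and 42666 to 55096 CPM in controls, with no overlap. These sums include regions with a miR-122 match. Without those regions they were 27725, 29402, 26069 and 19679 CPM in KO and 30768 to 39907 CPM in controls, again with no overlap. Cyp8b1, an enzyme of bile acid synthesis, fell furthest, to 88.7 CPM from 2275 CPM, or to 34.2 from 113 CPM outside miR-122 matches. Arg1, the last enzyme of the urea cycle, fell to 149 CPM from 1660.3 CPM, or to 86.8 from 249.8 CPM outside such matches. Ttr, the carrier of thyroid hormone and retinol, was one of the 2 that rose, to 1539 CPM from 638 CPM, and the amino acid enzyme Tat was the other. Of all genes called, 48.5% were higher, or 26.3% when scaling factors came from genes without a miR-122 match. In such bulk samples, fewer cells of a type and less bound RNA per cell cannot be told apart.

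All 17 neuron markers that passed the filter on low counts were higher in KO, also without KO 4. The summed level of the list was 2543, 2849.6, 3329 and 10589.8 CPM in KO 1 to KO 4 against 44.3 to 57.3 CPM in controls. The level in KO 4 was 3.64 times the mean of KO 1 to KO 3. Rbfox1, a splicing factor of neurons, had 268, 295, 351.2 and 1194 CPM in KO and no read in any control, and Snap25, a protein of synaptic vesicle release, had 519, 545, 677 and 1951 CPM in KO and 6 reads in all controls together. Of the 21 neuron markers in the file, 9 had no control read, and of these Stmn2, Nefm and Nrgn were not tested. The others of the 9 were tested only because the KO libraries held them, so their direction was fixed. Markers with few control reads, such as Snap25, were hardly freer. Fitted folds of the genes without a control read are no measure of size. With those genes set at a floor of 3 counts over the control group, the median log2 fold of the list was 7.51. The glia list showed the same order of libraries, with 723, 801, 805 and 2067 CPM in KO against 271 to 466 CPM in controls, and 4 of its 5 tested members were higher. What the neuron and glia reads contribute to the other KO values was not tested, and leaving out KO 4 does not remove them, since KO 1 to KO 3 held such reads too. Whether KO 4 holds RNA of another sample was not tested.

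Stellate cell and matrix genes summed to 3406, 3509, 3948 and 2238 CPM in KO against 1236 to 1558 CPM in controls. Of 15 tested, 10 were higher and none lower in KO by the same test, among them the collagens Col1a1 (249 against 62.5 CPM) and Col3a1 (530.5 against 143 CPM). Over all genes tested, 21.9% were higher and 23.3% lower, which also applies to the lists that follow. Kupffer cell and macrophage genes were higher in 8 of 14 cases, with Csf1r, the receptor that maintains macrophages, at 192 against 90.00 CPM. For these lists KO 4 was the lowest KO library rather than the highest. None of the 11 endothelial markers tested passed in either direction, with a median log2 fold of -0.05. That list depended on the scaling, since 5 of the 11 were lower when factors came from genes without a miR-122 match, which moved the median of all genes from 0.07 to -0.34. Under that scaling the stellate list had 9 of 15 and the Kupffer list 6 of 14 higher. Of all 8843 genes tested, 1092 were then higher and 3058 lower. Of the cholangiocyte and progenitor genes, 2 of 3 tested were higher, among them Spp1, which encodes osteopontin (79.9 against 11.2 CPM). The 1 lymphocyte gene tested was higher, and none of the 5 erythroid genes passed.

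**Figure D1:**
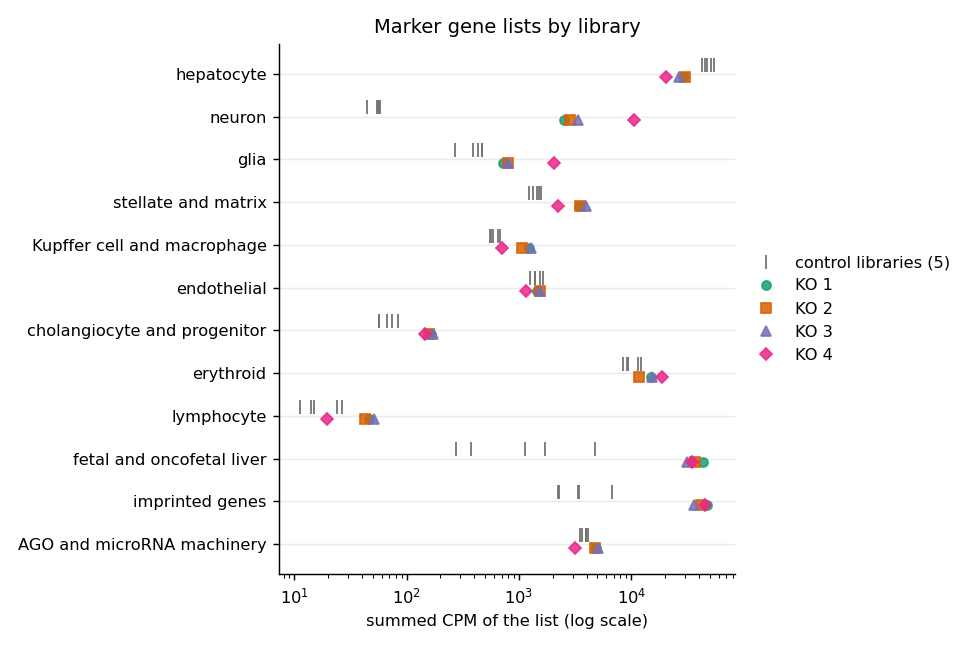
Summed CPM of each marker list (log axis) in the 4 KO libraries (coloured symbols) and the 5 control libraries (grey ticks), each point 1 library. The neuron list spans 2543 to 10589.8 CPM in KO with KO 4 highest, while the hepatocyte list spans 20260.3 to 28735 CPM in KO, under every control.

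Within the KO libraries most AGO-bound reads lay in messenger RNA. Regions in 3′ UTRs, where microRNA sites act best, held 35.04 ± 1.09% of the counts, with 34.4, 34.8, 36.6 and 34.3% in KO 1 to KO 4. Coding sequence (CDS) came next with 27.02 ± 3.53%, and 5′ UTRs held 4.53 ± 0.237%. The 3′ UTR share was close to level across the libraries, while the CDS share was 29.9, 28.3, 27.9 and 21.9% and lowest in KO 4. Introns showed the reverse order, with 3.38, 4.11, 4.68 and 7.4%. Without KO 4 the mean shares were 35.3% for 3′ UTRs, 28.7% for CDS and 4.06% for introns.

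Structural and noncoding RNAs made up most of the rest. The class that the file calls RNA, mainly ribosomal and small nuclear or nucleolar sequences, held 9.18 ± 1.35% in only 501 regions. Long intergenic noncoding RNAs (lincRNAs) held 5.25 ± 0.547%, which fell to 1.94% of the remaining counts once H19 was left out. Mitochondrial transfer and ribosomal RNA held 3.33 ± 0.566% in 13 regions, and 1 region took 61.3% of that. MicroRNA hairpins of the class miRNA held 1.67 ± 0.595%, with 0.919, 1.49, 2.02 and 2.26% in KO 1 to KO 4. Introns and hairpins had the widest relative spread among the classes above 1%. Pseudogenes held 1.36 ± 0.198%, and regions downstream of genes 2.29 ± 0.422%. A typical region was most strongly bound in the miRNA class, where the median was 55.1 CPM, after the few mitochondrial regions, against 4.86 CPM in 3′ UTRs and 3.1 CPM in CDS.

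The most bound regions of single classes included genes of secreted liver proteins. In CDS it was in Ahsg, a plasma glycoprotein, with an 8mer of let-7 and 2205, 1809, 2114 and 1559 CPM in KO 1 to KO 4. In 5′ UTRs it was in Mup2, a major urinary protein whose gene has near-identical copies, with 1018, 2214, 1470.2 and 2898 CPM. The highest downstream region overlapped the hairpin Mir191 (282, 631, 928 and 1195 CPM), so that hairpins also appear outside the class named for them. The highest intergenic region overlapped the pseudogene Gstm2-ps1 and held an 8mer of miR-194 (586, 563, 406 and 568 CPM in KO, 229.5 to 327 CPM in controls, adjusted p = 0.00584, edgeR). The other 3 did not pass.

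To ask how this make-up differed from that of control liver beyond the loss of miR-122 sites, shares were recomputed over the 81270 regions without any miR-122 match. The 4 KO and 5 control libraries were compared by an exact permutation test. Any match means 6mers too, to miR-122-5p, to the file's class miR-122-5p-B or to the other strand, miR-122-3p. This leaves out the most bound ribosomal RNA region of Gm26924, for a miR-122-3p 7mer (mean 9419 CPM in KO, 9147 CPM in controls). Of 19 classes, 9 passed after Benjamini-Hochberg adjustment (47.4%), 6 higher and 3 lower in KO, each at an exact p of 0.00794, the smallest that this test can give, and an adjusted p of 0.0168. CDS fell to 27.3% from 37.2%, with no overlap between groups. The 3′ UTR share rose to 35.5% from 29.5%, lincRNA to 5.54% from 1.36% and introns to 4.93% from 2.64%. The share in 5′ UTRs fell to 4.59% from 7.54%. The class RNA (7.78% against 8.56%) and hairpins (1.68% against 1.65%) did not pass. Over all regions, miR-122 matches included, the class RNA held 9.18% in KO and 8.45% in controls. Without KO 4, 6 classes were higher and 2 lower, and without H19, 7 and 3. Because shares sum to a fixed total, a rise of 1 class lowers the others.

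**Figure D2:**
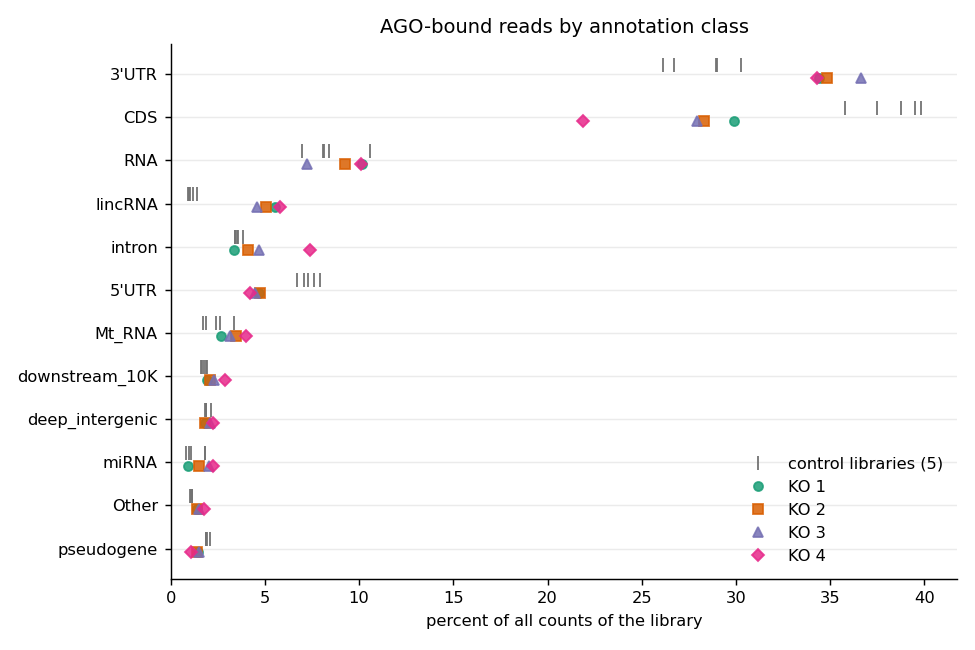
Percent of all counts of a library (x axis, from 0) in each annotation class that held at least 1% of KO counts, for the 4 KO libraries (coloured symbols) and the 5 controls (grey ticks). The 3′ UTR values of KO sit between 34.3 and 36.6%, and the CDS values between 21.9 and 29.9%.

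Once miR-122 was absent, let-7 led the landscape. Regions with a 7mer or 8mer match to let-7 held 8.73 ± 0.892% of KO counts, with 8.19, 9.32, 9.64 and 7.77% in KO 1 to KO 4. The miR-15/16 family followed with 7.998 ± 0.814% (8.16, 8.07, 8.86 and 6.9%), and miR-30, at 7.55 ± 1.43% (8.43, 7.82, 8.49 and 5.45%), was the third. Regions matching miR-122-5p, which ranked first in every control library with a mean of 12.9%, held 1.44 ± 0.179% in KO and ranked 21 of 31. These 3 families also ranked 2 to 5 in every control library, so the order beneath miR-122 was largely that of control liver.

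The lead was narrow, and neighbouring ranks often could not be separated over 4 libraries. The share of let-7 exceeded that of miR-15/16 in 4 of 4 libraries, by 0.732 ± 0.514 percentage points, and miR-15/16 exceeded miR-30 in 3 of 4, by 0.451 ± 0.723. KO 1 was led by miR-30 and the other libraries by let-7. A gap of 2.22 ± 0.665 points, seen in 4 of 4, set these families apart from miR-29. Behind them came miR-29 at 5.33 ± 0.844%, miR-103 and miR-107 at 4.9 ± 0.207%, miR-22 at 4.88 ± 0.416% and miR-27 at 4.58 ± 0.278%. The mean difference between miR-103 and miR-107 and miR-22 was 0.0255 ± 0.43 points, so these do not differ beyond their spread. The same held for miR-148 (3.98 ± 0.356%), miR-26 (3.83 ± 0.704%), miR-19 (3.82 ± 0.374%), miR-21a (3.66 ± 0.295%) and miR-130 (3.63 ± 0.364%), each pair of neighbours differing by less than the SD of its difference.

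**Figure D3:**
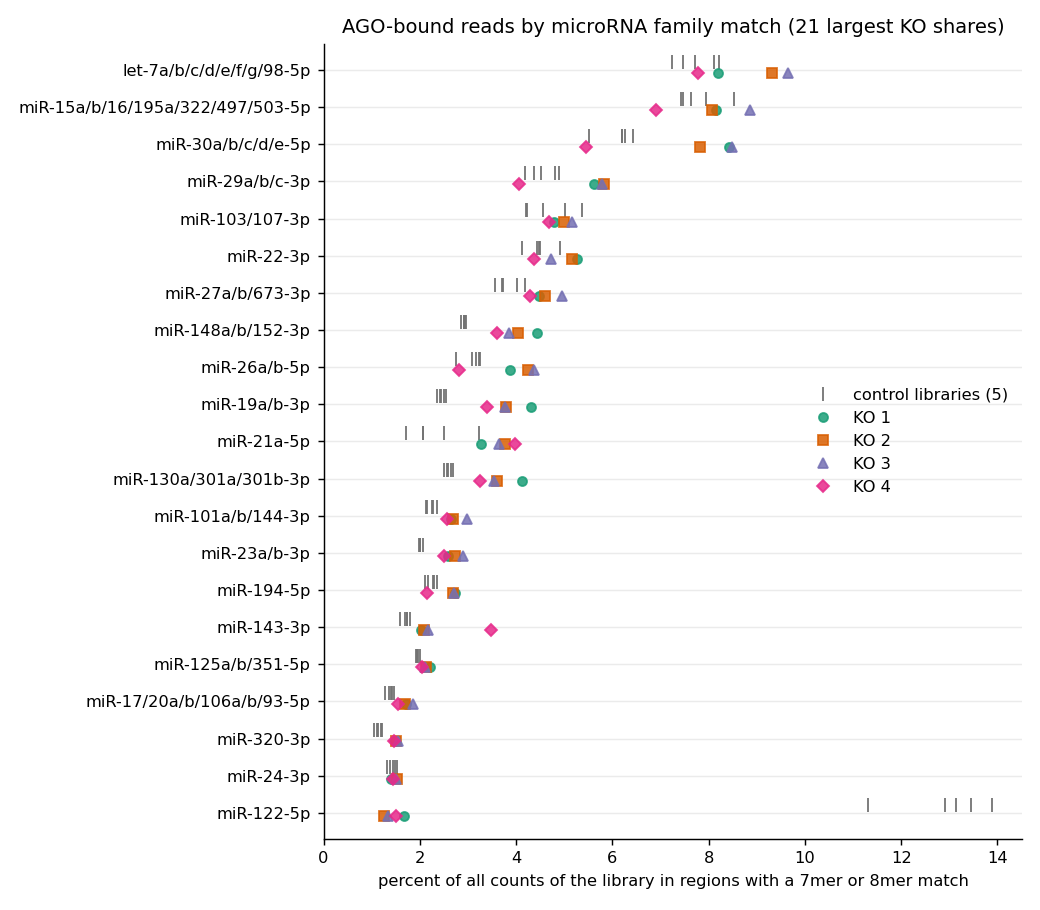
Percent of all counts of a library (x axis, from 0) in regions with a 7mer or 8mer match to each family, for the 21 families with the largest KO means, in the 4 KO libraries (coloured symbols) and the 5 controls (grey ticks). The total here includes regions with a miR-122 match, which held on average 5.86% of KO counts and 26.8% of control counts. Their fall raises the shares of the other families, and the choice by KO mean also favours KO. Outside miR-122 matches, 7 of 28 families were higher and 3 lower by the exact permutation test. All KO points lie above all controls in 11 of the 21 families and the groups overlap in 9, while miR-122-5p stands at 1.26 to 1.67% in KO and at 11.3 to 13.9% in controls.

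The order depended on which kind of RNA was counted. Within 3′ UTRs miR-30 led with 12.5% of the counts, ahead of let-7 (8.68%), miR-15/16 (6.75%) and miR-26 (6.21%). Within CDS let-7 led with 13.5%, ahead of miR-15/16 (9.87%) and miR-30 (6.15%). The families differed accordingly in where they were bound. Of the miR-30 counts 58.4% lay in 3′ UTRs and 22.2% in CDS, whereas of the let-7 counts 34.9% lay in 3′ UTRs and 41.6% in CDS. Counting 6mers as well put miR-103 and miR-107 first (11.5%), ahead of miR-15/16 (11.3%) and let-7 (10.2%). Of these miR-103 and miR-107 counts, 68.0% lay in regions that also matched miR-15/16, whose seed includes the run GCAGCA. First place under this count therefore rests largely on regions of both families. Leaving out KO 4, H19, structural RNA or regions without a control read kept let-7, miR-15/16 and miR-30 in this order. Without structural RNA the lead nearly closed, with let-7 at 9.42% and miR-15/16 at 9.31%. With each region's counts split over its families, miR-30 took the second place (6.11%) and miR-15/16 the third (5.86%).

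Several families owed their place to single regions. The strongest region of H19 held 41.4% of the miR-148 counts, 43.1% of the miR-19 counts and 45.4% of the miR-130 counts in KO. Without H19 these families fell from ranks 8, 10 and 12 to ranks 14, 15 and 17. For miR-21a, 55.8% of its counts lay in 1 region over a mitochondrial methionine transfer RNA, and without structural RNA it fell from rank 11 to 20. Another 19.3% of the miR-22 counts and 68.9% of the miR-2137 counts lay in 1 ribosomal RNA region of Gm26924. For let-7, 7.41% lay in 1 region of the mitochondrial gene mt-Rnr1. In contrast, no region held more than 1.56% of the miR-30 counts, which were spread over 3969 regions.

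Outside miR-122 matches, 10 of 28 families passed the exact permutation test between KO and controls after adjustment (35.7%), 7 higher and 3 lower in KO. Families with matches to H19 were among the 7. The miR-143 family of smooth muscle and stellate cells showed the largest ratio, with 2.06, 2.12, 2.2 and 3.58% in KO 1 to KO 4 against 1.26 to 1.44% in controls (exact p = 0.00794, adjusted p = 0.0247). All KO libraries lay above all controls, KO 4 farthest. The miR-23 share was 2.66, 2.78, 2.95 and 2.56% in KO against 2.22 to 2.3% in controls, and miR-126a-5p, processed from an intron of the endothelial gene Egfl7, had 0.685, 0.824, 0.912 and 0.906% against 0.468 to 0.566%. Both passed at the same exact p. The other strand from that intron, miR-126a-3p, did not pass, with 0.186% in KO and 0.194% in controls (exact permutation, adjusted p = 0.624). The share of miR-15/16 was lower, with 8.5, 8.34, 9.14 and 7.17% in KO and 9.54, 10.5, 9.27, 9.42 and 10.03% in controls. No KO library overlapped the controls there either, at an adjusted p of 0.0247. The other families that passed were miR-320, higher, and miR-193 and miR-378a-3p, lower (adjusted p = 0.0444 for miR-193).

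Of the leading families, let-7 and miR-30 did not pass. The share of let-7 was 9.03 ± 0.863% in KO and 9.68 ± 0.688% in controls (n = 5), and that of miR-30 was 7.84 ± 1.49% and 7.91 ± 0.503%. Neither passed (exact permutation, adjusted p = 0.374 and 0.921). Without KO 4, the miR-30 mean was 8.57%, which did not pass either. Leaving out KO 4 gave 9 families higher and 2 lower. The call of miR-15/16 then ended (adjusted p = 0.0769, exact permutation), and miR-26 and miR-191 passed as higher.

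The direction for miR-148, miR-19 and miR-130 turned when H19 was left out. All 3 passed as higher in KO over all regions, with miR-130 at 3.7% against 2.53%. Without H19 the shares were 2.49% against 3.2% for miR-148 (exact permutation, adjusted p = 0.037), 2.29% against 2.75% for miR-19 and 2.02% against 2.4% for miR-130 (adjusted p = 0.0556 by exact permutation for both of these, which did not pass). Within 3′ UTRs alone they were lower in KO at an adjusted p of 0.0317 by exact permutation, with miR-148 at 3.77, 3.91, 3.61 and 3.13% in KO and 5.12, 4.58, 5.24, 4.93 and 4.78% in controls. Also in 3′ UTRs, miR-194, a hepatocyte microRNA, was lower (3.74% against 4.3%), miR-23, miR-143 and miR-126a-5p stayed higher, and miR-15/16 turned to the other side without passing, at 6.89% against 6.7% (adjusted p = 0.786). The 3′ UTR shares of miR-143 were 2.47, 2.55, 2.64 and 4.79% in KO and 1.4, 1.42, 1.42, 1.51 and 1.42% in controls. With KO 4 also left out, no family passed within 3′ UTRs, the smallest adjusted p being 0.0625. With 5 and 3 libraries no exact p can be under 0.0179, and for miR-143 the 3 KO libraries left still lay above all controls.

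**Figure D4:**
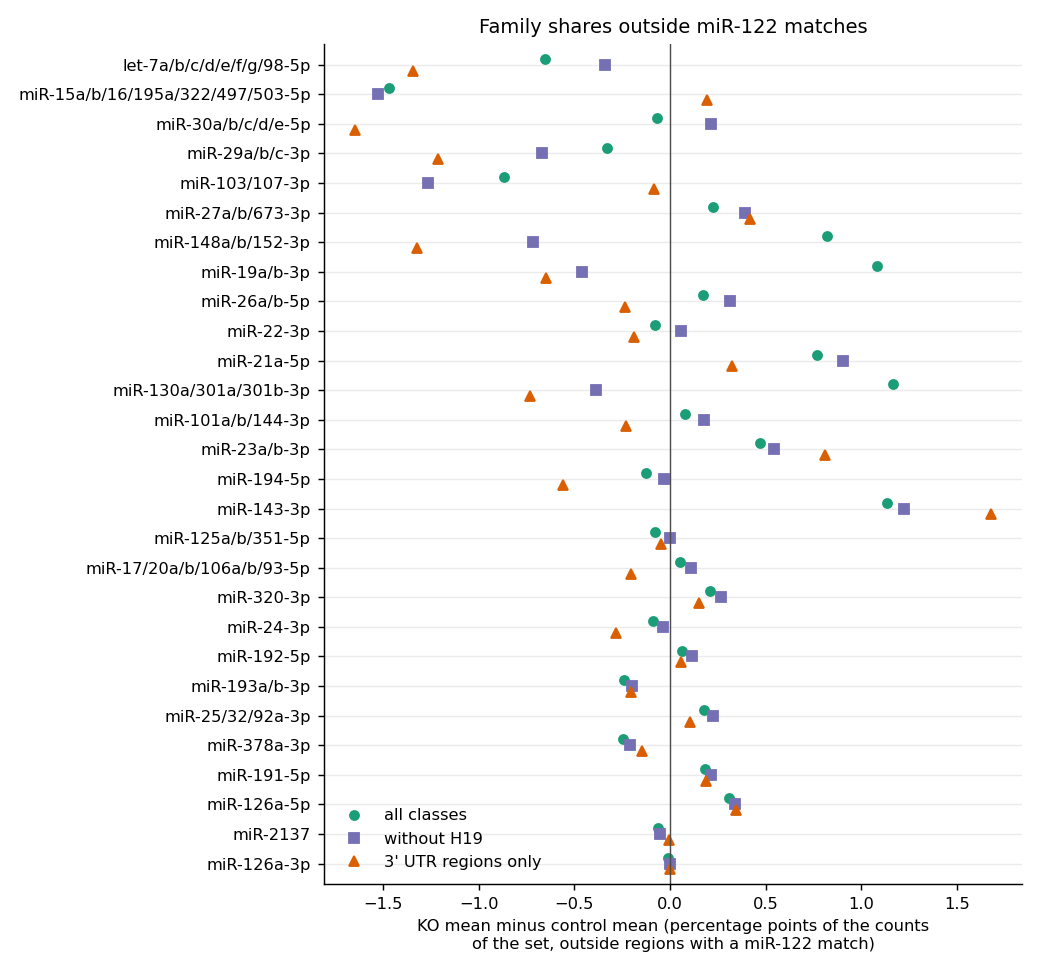
KO mean minus control mean of each family's share (x axis, percentage points) outside regions with a miR-122 match, over all classes (circles), without H19 (squares) and in 3′ UTR regions only (triangles), for 28 families and 9 libraries. The points of miR-148, miR-19 and miR-130 lie right of 0 over all classes and left of 0 without H19 and in 3′ UTRs, whereas those of miR-143 and miR-23 lie right of 0 in each.

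Matches to families other than miR-122 covered most of the KO landscape. Regions with a 7mer or 8mer of another family held 63.3 ± 3.84% of KO counts, regions with a 6mer only 21.3 ± 1.73%, and regions without any listed match 11.9 ± 1.9%. KO 4 had the lowest value of the first kind (57.8%) and the highest of the last (14.7%). Outside miR-122 matches, longer matches went with higher levels in 3′ UTRs. The median region had 7.48 CPM with an 8mer, 5.39 with a 7mer to the whole seed, 5.3 with the other 7mer, 4.6 with a 6mer and 3.47 with none. Each KO library had its highest median at 8mers, from 6.53 CPM in KO 4 to 8.41 CPM in KO 3. CDS regions showed the same order at lower levels, from 5.16 to 2.02 CPM.

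The families differed in the level that went with an 8mer. In 3′ UTRs the median 8mer region had 14.04 CPM for miR-30 (n = 837 regions), 10.6 for miR-26, 9.6 for let-7, 9.31 for miR-29 and 8.36 for miR-15/16. The 8mers of miR-103 and miR-107 had 5.67 CPM, no more than their 6mers at 5.67 CPM. Those 6mer regions can also hold a longer miR-15/16 site. Over all classes, 62.2% of the regions with any miR-103 and miR-107 match also matched miR-15/16. The comparison is thus not restricted to miR-103 and miR-107 sites. In CDS the let-7 8mers had a median of 9.55 CPM. These medians describe the bound regions only, since sites without a region in the file have no value.

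For each of the 10 leading families, the 2 most bound 3′ UTR regions were named. They were chosen by their KO level, which favours regions that are higher in KO. Of these 20, 6 were higher and 1 lower in KO by edgeR's quasi-likelihood test over the 17182 regions that passed the filter, where 17.5% of all regions were higher and 27.6% lower. Of all regions called, 38.8% were higher, or 49.3% with upper quartile scaling, which moved the median log2 fold from 0.03 to 0.26. The highest let-7 site lay in the 3′ UTR of Slc25a13, the mitochondrial aspartate and glutamate carrier (chr6:6042143-6042212, minus strand, mm10), with 958, 1047, 930.3 and 789 CPM in KO 1 to KO 4 and 875 to 1377 CPM in controls. The groups overlapped there. The next was Bach1, a repressor of haem oxygenase, with 689.6, 504, 622 and 385 CPM.

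For miR-15/16 the most bound 3′ UTR region lay in Clu, which encodes the chaperone clusterin (chr14:65981442-65981511, plus strand). It had 611, 502, 626 and 209 CPM in KO and 223, 316, 228, 151 and 164 CPM in controls (log2 fold 1.31, SE 0.27, adjusted p = 0.000799). KO 1 to KO 3 lay above all controls and KO 4 among them. Smad7, an inhibitor of TGF-beta signalling, came second with 369.6, 205, 285 and 124 CPM (adjusted p = 0.00353, edgeR), but it no longer passed without the sex term. For miR-30 the leading regions were in Psen2, a presenilin of the gamma-secretase complex (1016, 593, 716 and 558 CPM), and Sec23a, a coat protein of transport vesicles (926, 610.1, 673.4 and 255 CPM). Neither passed. Sec23a showed how far KO 4 could depart from the rest.

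The miR-26 family had the most bound 3′ UTR region with a 7mer or 8mer, in Pck1, the rate-limiting enzyme of gluconeogenesis (chr2:173158897-173158993, plus strand, a 7mer), with 2225, 4269, 3933 and 2469 CPM in KO and 2732, 3552, 2565, 1774 and 2246 CPM in controls. The groups overlapped. Its second site, an 8mer in Hgf, the growth factor made by stellate cells, had 243, 460.0, 563 and 217 CPM in KO against 142 to 203 CPM in controls (log2 fold 1.05, SE 0.30, adjusted p = 0.00919), with every KO library above every control. For miR-148 the first site was an 8mer in Errfi1, an inhibitor of the EGF receptor (925, 1590.5, 1369 and 981 CPM, adjusted p = 0.463, edgeR). The second, in Arl6ip1 (chr7:118119145-118119214, minus strand), was the 1 region of the set that was lower, with 548, 402, 354 and 261 CPM in KO and 664, 805, 742, 952 and 846 CPM in controls (log2 fold -1.08, SE 0.24, adjusted p = 0.00138), without overlap. The miR-27 sites were in Hbb-bs, a beta globin, and in Lifr, the receptor of leukaemia inhibitory factor, which carries 8mers of miR-27 and miR-30 and had 443, 511, 598 and 289 CPM in KO and 201 to 326 CPM in controls (adjusted p = 0.0244, edgeR).

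Further sites were in Slco1b2, a bile acid and drug transporter, and Fga, a fibrinogen chain (miR-29), in Ddx5 and Alb (miR-103 and miR-107), in Pitpna, a phosphatidylinositol transfer protein (miR-22), and in Tnrc6a, the AGO partner that recruits deadenylases, and Psap (miR-19). The Tnrc6a region held matches to miR-148, miR-19, miR-130, miR-22 and miR-30 and had 250.4, 249, 248 and 162 CPM. None of these 7 passed the test. The calls of Lifr and Hbb-bs ended when scaling factors came from regions without a miR-122 match and when single libraries were left out, and that of Hgf without control 4 or control 5. Clu and Arl6ip1 kept theirs in every setting tried.

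Of the 20 most bound regions in KO, 7 were of the class RNA, 5 lincRNA, 4 3′ UTR, 2 mitochondrial RNA, 1 a microRNA hairpin and 1 an intron that holds a hairpin. All 4 that passed the test were higher in KO and all lay in H19, with or without KO 4. Here too the choice by KO level favours calls of higher. The most bound of all covered the mitochondrial methionine transfer RNA mt-Tm (chrM:3831-3900, plus strand), with 17593, 22002, 20157 and 21906 CPM in KO and 12974, 16768, 9389, 10880.0 and 22778 CPM in controls. The spread within each group covered the difference (adjusted p = 0.451, edgeR). Ribosomal RNA regions annotated to Gm26924 or to no gene, which overlap the RefSeq 18S repeat Rn18s-rs5, took several of these places. Such repeat copies share reads, and the rule by which they were assigned was not given. The 12S ribosomal RNA mt-Rnr1 followed with 3655, 6643, 6185 and 9403 CPM. The globin genes Hba-a1 and Hba-a2 had near-identical 3′ UTR regions at 5121 and 5124 CPM, which reads cannot be split between with certainty.

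H19, an imprinted noncoding RNA that is abundant in fetal liver and mostly silent after birth, supplied 4 of the 20. Its strongest region (chr7:142575778-142575847, minus strand) had 20508, 15628, 13845 and 15906 CPM in KO 1 to KO 4 and 213, 1049.5, 130.2, 655 and 2807 CPM in controls (log2 fold 4.04, SE 0.62, adjusted p = 4.96e-05, edgeR). It was the second most bound region in KO, and it holds an 8mer of miR-130 and 7mers of miR-148 and miR-19, whose seeds overlap. The next regions matched other families that led in KO. The one at 142576205 held a miR-103 and miR-107 8mer (6029, 5727, 4908 and 4727 CPM), that at 142576281 a miR-29 8mer (5305, 5419.6, 4421 and 4818 CPM) and that at 142576420 a miR-15/16 7mer (3781, 2754, 2954 and 3081 CPM). In controls these had at most 326, 294 and 88.6 CPM. Every KO library lay above every control at each of the 9 H19 regions, and control 5 was the highest control at all of them. The 4 KO libraries agreed closely here, with coefficients of variation (CV, SD over mean) from 0.0923 to 0.172 for the 4 strongest regions.

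**Figure D5:**
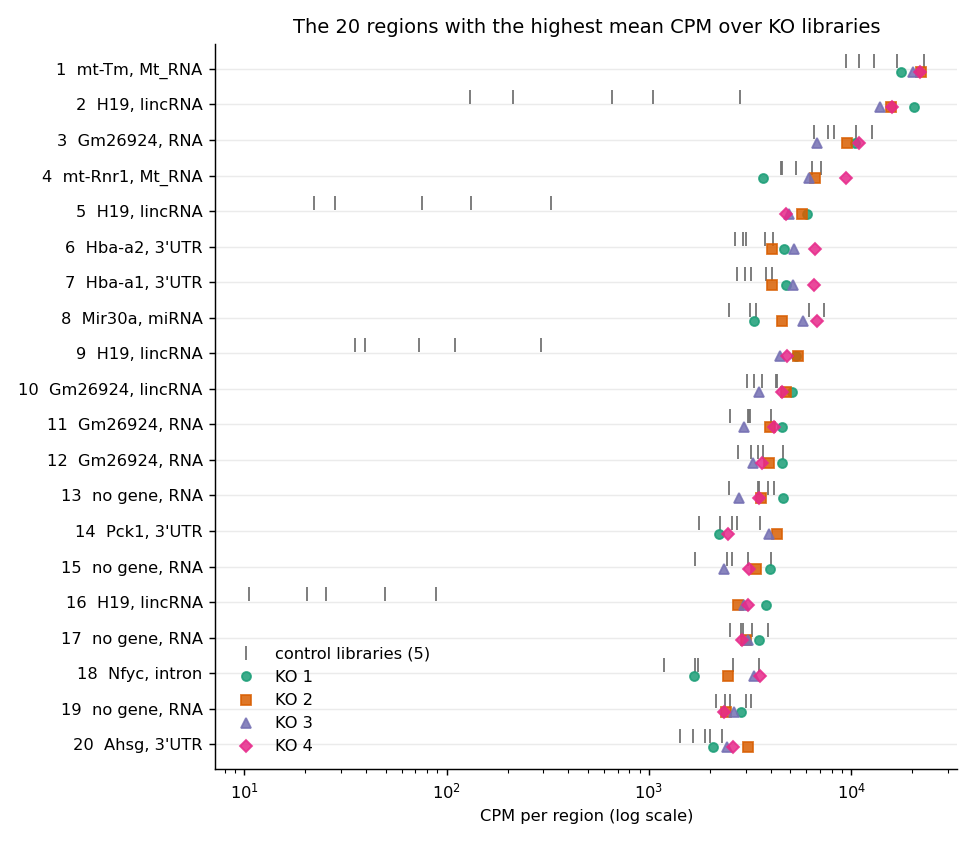
CPM (log axis) of the 20 regions with the highest mean over the KO libraries, in the 4 KO libraries (coloured symbols) and the 5 controls (grey ticks), each point 1 library. The controls of the 4 H19 regions reach from 10.6 to 2807 CPM, all under the KO values, while the groups overlap in the other 16 regions.

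Summed by gene, H19 led every KO library, with 39643, 34168, 29135 and 32195 CPM in KO 1 to KO 4 or 3.38% of all counts, and 338, 1603, 229, 1039 and 4476 CPM in controls. The 25 most bound genes held 16.7% of KO counts. Of these, 15 were among the first 25 in all 4 KO libraries, and 16 were also among the first 25 of controls. By edgeR's quasi-likelihood test, 6 of the 25 were higher, 3 lower and 16 did not pass at an adjusted p under 0.05. Without KO 4 the numbers were the same but not all the genes. Apob then no longer passed, and Mup2 passed as lower (log2 fold -1.05, adjusted p = 0.00435, edgeR). Of all genes tested, 21.9% were higher and 23.3% lower. The 25 were chosen by their KO level, which favours calls of higher, so these shares are not a like comparison.

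The genes that rose were noncoding, mitochondrial or imprinted. Malat1, a nuclear noncoding RNA, had 3155, 3555, 3885 and 6351 CPM in KO and 914 to 1285 CPM in controls (adjusted p = 0.000705, edgeR). Meg3, the noncoding RNA of the Dlk1-Meg3 imprinted locus, had 2059, 2267, 2294 and 8222 CPM against 0 to 14.8 CPM (adjusted p = 5.13e-06). Its level in KO 4 was 8222 CPM and its mean without KO 4 2207 CPM, still above every control. Igf2, the fetal growth factor whose gene lies beside H19, had 3389, 2615, 1852 and 2002 CPM against 11.3 to 226 CPM and was not highest in KO 4. Of the mitochondrial genes, mt-Nd5, a subunit of complex I, had 1497, 1742, 1636 and 4612 CPM against 142 to 197 CPM, and the 16S ribosomal RNA mt-Rnr2 had 2526, 2456, 2040.0 and 4211 CPM against 769.6 to 1332 CPM. All KO libraries lay above all controls for these genes. Malat1, Meg3, mt-Nd5 and mt-Rnr2 were highest in KO 4, as were the neuron and glia lists, whose part in these values was not tested. Without KO 4 the edgeR log2 fold was 1.53 for Malat1 (adjusted p = 9.67e-06), 3.07 for mt-Nd5 (adjusted p = 1.97e-09) and 1.06 for mt-Rnr2 (adjusted p = 0.000521). Of the imprinted genes listed, 11 of 16 tested were higher and 2, Airn and Slc38a4, lower, with a median log2 fold of 3.08 or, with genes lacking control reads at their floor, 3.08, where 21.9% of all genes tested were higher and 23.3% lower. Without KO 4, 12 were higher and 2 lower, with a median of 2.58. Of the 12 fetal liver genes listed, which overlap the imprinted list, 8 had a bound region and 4 were tested. All 4 were higher, where 21.9% of all genes tested were. As with the neuron markers, genes nearly absent from controls, such as Meg3, were tested only because the KO libraries held them.

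The 3 that fell were hepatocyte genes. Cps1, the first enzyme of the urea cycle, fell to 2452, 2389.6, 2156 and 2016 CPM from 5453, 7901, 6581, 5917 and 6362 CPM (log2 fold -1.56, SE 0.22, adjusted p = 0.000145, edgeR), with no overlap. Much of the fall lay in regions with a miR-122 match, and without them the gene had 2139, 2249, 1973 and 1858 CPM in KO and 2630.0, 3350.4, 3326, 2978 and 3216 CPM in controls, still without overlap. Albumin (Alb) had 8545, 6069.6, 5266 and 4134 CPM in KO against 11446, 12848, 11138, 7857 and 6960.3 CPM in controls (adjusted p = 0.0308), and Apob, the protein of very low density lipoprotein, 3559, 3667, 4029 and 2645 CPM against 4295, 3821, 4269, 4288 and 5562 CPM (adjusted p = 0.0497). The groups overlapped for both, and both calls ended with upper quartile scaling. That of Apob also ended without KO 4, at an adjusted p of 0.0729. Among the genes that did not pass were Ahsg, a plasma glycoprotein (5375, 5828, 5389 and 5061 CPM), the iron carrier Trf (3103, 2712, 2498 and 2212 CPM) and Pck1 (2590.3, 4855, 4312 and 2821 CPM). Cdk8, Cmss1 and Lars2 also stood among the 25, and for Cdk8 and Cmss1 the leading region was of the class RNA rather than messenger RNA.

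Of 15 tested genes of the microRNA machinery, 1 was higher and 2 were lower in KO by edgeR's quasi-likelihood test, a smaller share in each direction than among all genes (21.9 and 23.3%). Ago2, the main slicing Argonaute, was higher without overlap (237, 231, 278 and 225 CPM in KO, 125 to 141 CPM in controls). Drosha, the nuclear hairpin nuclease, was lower (7.95, 3.9, 5.6 and 11.4 against 74.8 to 107.1 CPM), as was Pan3 of a deadenylase complex (132, 114, 116 and 58.8 against 106 to 213 CPM). Dicer1, Tnrc6a, Tnrc6b and Tnrc6c were the most bound of the list, at 700.1, 1368, 748 and 414 CPM in KO, and none of them passed. The list's median log2 fold was 0.20, and it turned to -0.21 with scaling on genes without a miR-122 match, where 6 were lower and none higher. Under that scaling, 3058 of all 8843 genes tested were lower and 1092 higher.

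AGO-bound hairpin regions hold the microRNAs themselves. The 166 hairpin regions, of class miRNA or overlapping a RefSeq hairpin, held 2.81 ± 0.958% of KO counts, with 1.57, 2.56, 3.38 and 3.72% in KO 1 to KO 4 and 1.27 to 2.82% in controls. The 10 most bound took 56.7% of that. Mir30a led with 3297, 4549, 5746 and 6787 CPM, followed by Mir30e (1660.3, 2469.5, 3299 and 3532 CPM), Mir30d (1087, 1536, 1871 and 2173 CPM) and Mir27a (460.0, 1119, 1853 and 2594 CPM). The miR-30 family stood first among hairpins and also among 3′ UTR matches. KO 1 was the lowest and KO 4 the highest KO library for these hairpins, the order also seen in the hairpin total. Hairpin levels need not rank the guides. In controls, Mir30a had a mean of 4504 CPM and the miR-122 hairpin 468 CPM, although matches to miR-122-5p ranked first there. The hairpins of 4 of the 5 most bound regions are given from RefSeq (build GRCm38.p6), 5′ to 3′, with the bases that lie inside the bound region in capitals, since they show which arm the bound region covers.
Mir30a: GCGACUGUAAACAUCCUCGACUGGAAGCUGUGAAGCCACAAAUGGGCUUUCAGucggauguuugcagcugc
Mir30e: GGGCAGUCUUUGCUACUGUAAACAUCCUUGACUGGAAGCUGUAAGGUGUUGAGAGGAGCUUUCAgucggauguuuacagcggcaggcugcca
Mir27a: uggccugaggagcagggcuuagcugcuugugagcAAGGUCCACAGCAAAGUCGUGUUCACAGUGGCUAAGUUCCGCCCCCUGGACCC
Mir675: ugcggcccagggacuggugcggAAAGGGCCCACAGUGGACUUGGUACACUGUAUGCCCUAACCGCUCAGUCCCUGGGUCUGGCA

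Mir30a lies at chr1:23272269-23272339 and Mir30e at chr4:120772606-120772697, and their regions covered all 22 bases of the 5p strand and 7 and 6 bases of the 3p strand. Mir27a lies at chr8:84208672-84208758, and its region covered the whole of miR-27a-3p and 1 base of the other strand. These are the strands whose families ranked 3 and 7 by target matches. The region on Mir675 (chr7:142577064-142577147), a hairpin inside H19, covered miR-675-3p whole and 14 bases of miR-675-5p. It was the 1 hairpin among the 10 most bound that passed the test, with 1213, 1606, 999 and 1391 CPM in KO and 7.05, 130.1, 3.52, 78.6 and 426 CPM in controls (log2 fold 3.31, SE 0.73, adjusted p = 0.00118, edgeR). Whether its reads come from the mature microRNA or from the H19 transcript around it was not tested.

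Of the 111 hairpin regions tested, 26 were higher and 1, that of miR-122, was lower in KO, or 31 and 2 of 117 without KO 4, where 17.5% of all regions tested were higher and 27.6% lower. Of the 26, 15 lay in the imprinted Dlk1-Meg3 cluster of chromosome 12, and the highest of these were Mir337 (74.5, 126, 183 and 169.8 CPM), Mir136 (49.7, 150.1, 144 and 176 CPM) and Mir540 (63.6, 143, 191 and 121 CPM), with control means of 4.13, 2.26 and 5.18 CPM. KO 1 was lowest at each of them, and KO 4 was highest at Mir136 alone. The hairpins in this paragraph were chosen after their values were seen. The hairpins of the miR-200 family, which is typical of epithelial cells, were also higher. Mir200b had 160.0, 276, 324 and 387 CPM in KO against 55.5 to 121 CPM, Mir141 111, 172, 189.6 and 237 CPM against 20.2 to 46.5 CPM, and Mir429 and Mir200c passed as well. Mir483, which lies inside Igf2, had 70.5, 101, 105 and 93.1 CPM in KO against 0 to 12.1 CPM in controls. Hairpins with few control reads were tested only because the KO libraries held them.

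Some regions with a 7mer or 8mer match to miR-122 stayed bound. The 5 highest in KO were in Tnrc6a (3′ UTR, 321, 365, 361 and 217 CPM), Rab1 (CDS, 378, 309, 316 and 158 CPM), the small nucleolar RNA Snord104 (181, 161, 162 and 191 CPM), the mitochondrial leucine transfer RNA mt-Tl1 (145, 129, 169 and 243 CPM) and Cps1 (CDS, 261, 107.2, 137 and 131 CPM). The region in Tnrc6a also holds 8mers of miR-23 and miR-26, and that in Rab1 a 7mer of miR-22. Neither passed the test against controls, which had 375 to 459 and 285 to 458 CPM. At Tnrc6a, however, every KO library lay under every control (log2 fold -0.44, adjusted p = 0.116, edgeR). That region passed as lower with DESeq2 (adjusted p = 0.0236) and with factors from regions without a miR-122 match (edgeR, adjusted p = 0.0422). The Rab1 region passed as lower without KO 1 (edgeR, adjusted p = 0.0459). Snord104, mt-Tl1 and Cps1 match miR-122 alone at this length and were lower in KO. The Cps1 site had 2337, 3911, 2574, 2368 and 2636 CPM in controls (log2 fold -4.05, SE 0.31, adjusted p = 4.28e-08, edgeR), so that 159 CPM remained on average. Over all of the 5750 regions with such a match, the median KO level was 0.726 CPM, under the group floor of 0.807 CPM that 3 counts over all KO libraries give.

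Binding in KO was spread over many regions. A KO library needed its 2349 to 3115 most bound regions to reach 50% of its counts, and a control library 1650 to 2388. The 100 most bound regions of each library held 21.1, 21.2, 18.97 and 23.9% of counts in KO and 17.3, 20.4, 16.00, 15.99 and 20.8% in controls. The groups overlapped (exact permutation p = 0.0794, two-sided), and without H19 the KO values were 18.3, 18.9, 17.02 and 21.9% (p = 0.508). Of the fits that left out 1 library, only that without KO 3 passed (exact permutation p = 0.0357).

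How well the 4 libraries agreed was measured on the 2285 regions with a KO mean of 50 CPM or more, which held 46.9% of KO counts. Their median CV was 0.321, against 0.271 over the controls and 0.112 from counting alone. Without KO 4 it was 0.207. KO 4 was the lowest library in 55.8% of these regions and the highest in 19.3%, and it departed by a factor of 2 or more from the mean of the others in 245 regions upwards and 447 downwards. The same counts were 104 and 295 for KO 1, 32 and 75 for KO 2 and 26 and 47 for KO 3. KO 1 was the highest library in 35.3% of these regions and the lowest in 24.4%. Across the 87507 regions with at least 10 counts over the 9 libraries, which are not independent replicates, the correlation of log CPM between pairs of KO libraries ran from 0.625 to 0.803, with the lowest values in pairs with KO 4.

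The regions with the largest CV were in Mup-ps19 and Mup20 of the major urinary protein cluster, in Serpina1e, in Efna1 and in a repeat within Meg3. The Mup20 region had 39.7, 194, 976 and 137 CPM in KO and 53.6, 130.1, 133, 502.5 and 1333 CPM in controls. The major urinary proteins are pheromone carriers that males express more, and their genes are near-identical copies whose reads cannot be split with certainty. Serpina1e, of a family of such copies too, had 99.4, 318, 20.5 and 16.3 CPM. The steadiest regions were in the CDS of Apob (93.4, 91.6, 93.4 and 88.2 CPM), in Snord49b, Malat1, in the CDS of Actb, the gene of beta actin (254, 243, 236 and 240.0 CPM), and in an intron of Grik3 that overlaps the pseudogene Ftl2-ps (268, 263, 249 and 268 CPM).

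A set of 7850 regions had KO reads and no control read. They held 3.02, 3.25, 3.75 and 11.7% of the counts of KO 1 to KO 4, so KO 4 stood apart here as for the neuron markers. The 647 genes without any control read were led by Rbfox1, Cadm2, an adhesion molecule of neurons (146, 152, 193 and 609 CPM), Csmd1 (98.4, 113, 149 and 472 CPM), Dlgap1 of the postsynaptic density (102, 109.2, 121 and 452 CPM) and the neuronal calcium sensor Vsnl1 (100.4, 98.4, 128 and 431 CPM). All of the 10 highest were highest in KO 4. In the other direction, 2448 regions had control reads and no KO read, and 1804 of them held a miR-122 match. Leaving out every region without a control read changed the let-7 share from 8.73 to 9.14% and moved no family among the first 4 in rank.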

How the data were processed

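The deposited matrix holds raw read counts per region for 9 libraries, per the file headers. Bowtie2 and the mouse build mm10 are named in the submitters' processing notes. No source used here names the peak caller, how duplicates were treated or how reads were counted. Each region was taken once from 143524 rows, 1 for each seed match. A phyloP conservation score that the authors deposited for each seed match was read for the file check and enters no result. Levels are CPM of all counts in regions. A region counted for a family if it held a 7mer or 8mer match in the deposited annotation. Counts were tested with edgeR 4.0.16 in R 4.3.3 (quasi-likelihood, TMM factors, filterByExpr by genotype, sex and genotype as terms), over 17182 regions and over 8843 genes, with Benjamini-Hochberg adjustment and a threshold of 0.05. The procedure was tested on simulated data. Shares were compared with two-sided exact permutation tests over the libraries, 126 arrangements with a smallest p of 0.00794. Alternatives were upper quartile factors, factors from features without a miR-122 match, no filter, DESeq2 1.42.0, no sex term, a replicate block, other definitions of a match and each library left out. Same-numbered KO and control libraries came from different mice, and their deviations correlated between -0.0889 and 0.00109 over regions, so the main comparisons used no block. The regions named were the 20 most bound, the highest of each class above 1%, the highest 2 in 3′ UTRs for each of 10 families, the highest 5 with a miR-122 match, the 5 largest and 5 smallest CVs and the 10 highest hairpins, and the genes were the 25 most bound and the marker lists, with a few others named as chosen after their values were seen. A single one of the regions so chosen is counted but not reported here. The members and lists were chosen with earlier results of these data known. No genome was used, so sites are given by coordinates only. Intervals and floors cover counting error only, since PCR copies are not separate molecules.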

Additional observations from a re-analysis of the deposited data

Results flagged for a closer look

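Among 102 measures examined over the 4 KO libraries (classes, families, named regions and genes, marker lists and measures of concentration), 10 had 1 library that lay farther from the other 3 than Dixon's criterion for 4 values allows, which chance alone gives in about 1 in 20 groups. KO 4 was that library in 9 of them. Its summed neuron marker level was 10589.8 CPM, where the others had 2543 to 3329 CPM, and its glia level 2067 CPM, where they had 723 to 805 CPM. Meg3 stood at 8222 CPM in KO 4 (2059 to 2294 CPM in the others) and the complex I subunit mt-Nd5 at 4612 CPM (1497 to 1742 CPM). Regions matching miR-143-3p held 3.48% of the counts of KO 4, where the others had 2.03 to 2.17%.

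Other measures were lowest in KO 4. Regions matching miR-29 held 4.07% of its counts (5.63 to 5.82% in the others), regions matching miR-194-5p 2.16% (2.69 to 2.74%) and pseudogenes 1.07% (1.42 to 1.49%). The genes of the AGO and microRNA machinery summed to 3167 CPM in KO 4, where the others had 4780.2 to 5052 CPM. In KO 3, Cmss1 had 2997 CPM, where the others had 4064 to 4152 CPM. The cause of these departures was not tested.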

How the results depend on the processing

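Over the alternatives, the counts of calls and the main shares that answer a comparison were recomputed, and 64 of these values kept their direction and their side of the threshold or, for a count, stayed within 1.5 times. The others were mostly counts of calls that changed by more than that, 16 of them downwards. Of the values for single classes, families, regions and genes, 1695 kept both, 208 fell below, 44 newly passed and 16 changed direction. The cause was not tested unless the alternative itself removes regions or libraries. Leaving out each library in turn gave 5205 to 9699 called regions, 3095 to 4496 called genes, 0 to 9 annotation classes and 0 to 11 families, a let-7 share of 8.43 to 9.05%, an H19 share of 3.18 to 3.53% and a difference in the share of the 100 most bound regions of 2.31 to 3.96 points. Without a control the smallest exact p is 0.0286, and without a KO library 0.0179. The former cannot pass after adjustment here, and the latter only where enough families share it, so counts of 0 say nothing about stability. The same holds for the 0 families called with splits within sex. Without the filter on low counts, 21743 regions were called. The let-7 share was 10.2% with 6mers included, where miR-103 and miR-107 led, and 7.38% with counts split over families.

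The number of families that passed was 16 with miR-122 regions included, 5 with counts split over families and 0 within 3′ UTRs without KO 4, an alternative chosen after seeing the data. With miR-122 regions included, the KO minus control difference was -0.778 points for LTR, 0.174 for miR-125 and 0.201 for miR-15/16. For miR-148, miR-19 and miR-130 it was -0.718, -0.462 and -0.387 without H19, -1.32, -0.648 and -0.732 in 3′ UTRs, and -1.17, -0.497 and -0.587 in 3′ UTRs without KO 4. For miR-148 it was -0.0399 with split counts. For miR-15/16 it was 0.194 in 3′ UTRs and 0.571 there without KO 4. With the replicate number as a block, 7621 regions and 4010 genes were called, and the region in Mup20 turned to a log2 fold of 0.27. Same-numbered libraries did not deviate together, so the block has no basis in the design. KO 4, with 612479 counts, and control 2, with 445912, had the least depth.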
